A study of Homo sapiens with 6 samples.

Results

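To follow the genes with which tumor cells cut and protect the matrix around them after EHD1 knockdown (KD), 9 genes were examined: the plasminogen activators PLAU and PLAT, the PLAU receptor PLAUR, the inhibitor SERPINE2, the matrix metalloproteinases MMP2 and MMP14, and the metalloproteinase inhibitors TIMP1, TIMP2 and TIMP3. They were found by symbol, 9 of the 60676 genes in the count table, and the group was chosen by the strong rise of PLAU in shEHD1 cells, so the differences between the groups are given for these genes as descriptions, without a p-value. The libraries came from TC71, a Ewing sarcoma (EWS) cell line, stably transduced as a polyclonal, puromycin-selected pool with a doxycycline (Dox)-inducible lentiviral vector that also encodes GFP. The vector carried a non-targeting control shRNA (shNTC+Dox, 3 libraries) or an shRNA against EHD1 (shEHD1+Dox, 3 libraries), and both pools received 0.5 µg/ml Dox for 3 days. The groups are called shNTC and shEHD1 below. Which of the study's EHD1 shRNAs these libraries carry is not given in the sources used here, and all 6 libraries are from Dox-treated cells. Nothing in the labels says that replicates were separate cultures, so the p-values below measure only the spread between these libraries.

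Plasminogen activators are serine proteases that cut the zymogen plasminogen to plasmin, a broad protease that degrades fibrin and matrix glycoproteins and activates some metalloproteinase zymogens. PLAU encodes urokinase, which works at the cell surface when bound to its receptor PLAUR, and PLAT encodes tissue plasminogen activator, best known for fibrinolysis. SERPINE2 (protease nexin-1) is a serpin that inhibits thrombin and both activators. MMP14 is a membrane-anchored collagenase, and its complex with TIMP2 brings the MMP2 zymogen, a gelatinase, to the surface for activation. TIMP1 and TIMP2 are secreted inhibitors, while TIMP3 is held in the matrix and also inhibits ADAM family proteases.

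The libraries held between 22711235 and 30582187 counts. One control library, shNTC replicate 3, stood apart: a chi-square of counts over genes per degree of freedom was 25.6 and 27.1 between it and the other 2 control libraries, against 5.56 between those, 7.59 to 18.0 within shEHD1 and 32.3 to 63.6 between the groups. Without it, the log2 fold change of shEHD1 over shNTC went from 3.91 to 3.41 for PLAU and from -0.90 to -1.01 for TIMP2. TIMP1 went from 0.45 to 0.38, while MMP14 (0.59) and TIMP3 (-2.08) kept their values. Outside the 9 genes, MMP9 went from 1.48 to 1.15, VLDLR from 0.73 to 0.59 and FOSL2 from -1.37 to -1.17. The value for SERPINE2 is given with its result. EHD1, the target, was at 27.1 ± 0.809 CPM (counts scaled to library size with TMM factors) in the control libraries and 8.02 ± 1.18 CPM after KD (SD, n = 3 each). All 8 Ewing sarcoma markers examined, among them NKX2-2, NR0B1 and CD99, were detected with more than 3 counts in both groups, with a summed level of 2740 to 2770 CPM in shNTC and 2530 to 2640 CPM in shEHD1. Of the 8, STEAP1 (log2 fold change -0.43, edgeR adjusted p = 0.00443) and PAX7 (-0.38, edgeR adjusted p = 0.0107) were lower and CD99 (0.33, edgeR adjusted p = 0.0293) higher in shEHD1, and the other 5 did not pass. Of all genes tested, 17.3% passed at an edgeR adjusted p under 0.05. Matrix proteases and their inhibitors are also made by stromal cells, so markers of other cell types were read. None of the 5 endothelial markers exceeded 3 counts in a library, and VWF, TEK and KDR were at 0. The 5 macrophage and leukocyte markers summed to 0.455 to 1.37 CPM in shNTC and 0.772 to 0.857 CPM in shEHD1, with CD163 at 0. The 5 epithelial markers summed to at most 0.417 CPM, with KRT5 and KRT14 at 0. Of the 6 fibroblast markers, PDPN was at 0 and PDGFRA had at most 3 counts, and the list, mainly COL1A1, DCN and LUM, summed to 20.1 to 29.8 CPM in shNTC and 24.5 to 27.6 CPM in shEHD1. Within the list DCN, which encodes the matrix proteoglycan decorin, was lower in shEHD1 (log2 fold change -1.01, edgeR adjusted p = 0.00778), while LUM (0.44), COL1A1 (0.16) and COL1A2 (0.67) did not pass (edgeR adjusted p = 0.340, 0.539 and 0.720). The part of these markers in the results below was not tested. In bulk RNA, fewer cells that express a gene and less RNA of it per cell cannot be told apart.

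Of the 9 genes, PLAU, MMP14 and TIMP1 were higher and TIMP2 and TIMP3 were lower in shEHD1, with groups that did not overlap, and the other 4 overlapped. PLAU and TIMP3 moved farthest, in opposite directions. All 9 passed the filter for testing, 10 counts or more in no fewer than 3 libraries. PLAU met it only through the shEHD1 libraries, as its shNTC counts were 0, 11 and 0. The call rule used below for other genes (edgeR's quasi-likelihood test, adjusted p under 0.05 over the 16785 genes tested) was met by 3 of the 9 upward and 2 downward, beside 8.59% of all genes tested upward and 8.75% downward. With a fold change of at least 2 as well, it was met by 1 upward and 1 downward, beside 1.08% and 1.74%. Groups did not overlap for 39.3% of all genes tested. Since the 9 were chosen on this contrast, nothing is read from these counts. The count of 5 fell to 4 without shEHD1 replicate 1 (PLAU no longer met the rule) and to 3 without shEHD1 replicate 3 (PLAU and TIMP1), and rose to 6 without shNTC replicate 3, when SERPINE2 met it. The median log2 fold change was 0.14 over the 9 genes and 0.00 over all genes tested.

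**Figure D1:**
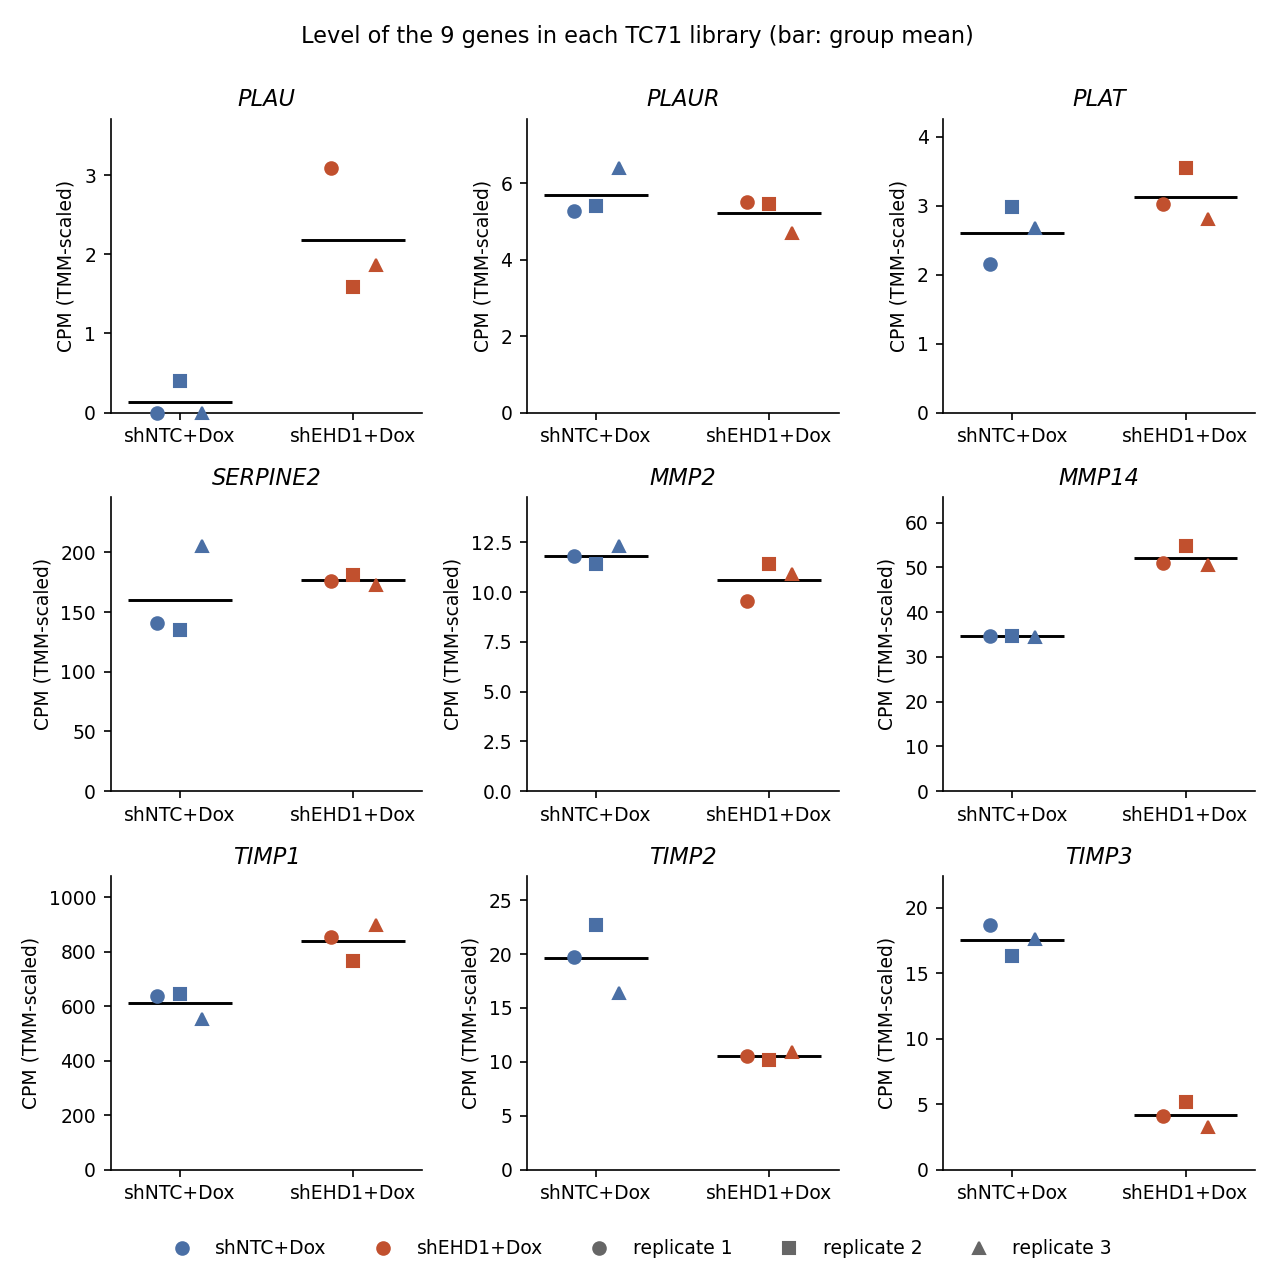
Level of each of the 9 genes in every library, in CPM scaled by TMM on axes that start at 0, with symbols for the replicate and a bar for the group mean. The groups are apart for PLAU, MMP14, TIMP1, TIMP2 and TIMP3 and overlap for PLAUR, PLAT, SERPINE2 and MMP2.

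The sequences upstream of the genes whose groups were apart are shown so that their composition can be compared: each is the 250 bases before a RefSeq start (GRCh38.p14), read 5′ to 3′ on the gene's strand, with GC boxes (GGGCGG on either strand, the word bound by SP1) in capitals. The promoter table held 6 of the 9 genes, in 8 windows, and none for TIMP2. For PLAU, which has 2 entries, the downstream start is shown.
PLAU (chr10:73910882-73911131, plus strand): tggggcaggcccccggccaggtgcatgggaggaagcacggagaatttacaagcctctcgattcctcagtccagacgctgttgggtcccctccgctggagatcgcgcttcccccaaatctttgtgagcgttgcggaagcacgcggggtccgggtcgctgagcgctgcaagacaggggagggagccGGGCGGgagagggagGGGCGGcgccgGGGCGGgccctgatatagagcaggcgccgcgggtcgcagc
MMP14 (chr14:22836335-22836584, plus strand): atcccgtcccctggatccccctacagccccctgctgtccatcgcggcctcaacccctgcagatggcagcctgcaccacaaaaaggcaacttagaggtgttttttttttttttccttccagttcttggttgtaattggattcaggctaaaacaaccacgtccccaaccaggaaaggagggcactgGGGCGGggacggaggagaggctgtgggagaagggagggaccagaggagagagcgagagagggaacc
TIMP1 (chrX:47582186-47582435, plus strand): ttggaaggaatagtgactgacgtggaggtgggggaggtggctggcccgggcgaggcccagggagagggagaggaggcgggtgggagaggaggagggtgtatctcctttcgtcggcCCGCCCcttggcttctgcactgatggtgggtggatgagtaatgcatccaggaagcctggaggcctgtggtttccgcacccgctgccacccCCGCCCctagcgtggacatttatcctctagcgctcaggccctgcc
TIMP3 (chr22:32801455-32801704, plus strand): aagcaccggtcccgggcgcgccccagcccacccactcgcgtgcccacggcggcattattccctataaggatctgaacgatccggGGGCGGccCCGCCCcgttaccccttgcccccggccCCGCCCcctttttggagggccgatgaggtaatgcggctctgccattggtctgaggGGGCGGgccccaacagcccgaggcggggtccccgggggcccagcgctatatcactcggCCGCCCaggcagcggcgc
The TIMP3 window held 5 GC boxes, the PLAU window 3, that of TIMP1 2 and that of MMP14 1. Of the 8 windows, 6 held at least 1 GC box, beside 42.6% of the 35116 windows in the table. The 2 windows of SERPINE2, whose groups overlapped, held 1 and 2. The other PLAU window held none. The AP-1 word TGANTCA, read on both strands, was in 6.57% of all windows and in 1 of the 8, that of PLAUR. The paired ETS word GGAAGGAA was in 3.06% of all windows and in those of MMP14 and TIMP1. The word TATAAA was in 10.7% of all windows and in none of the 8. A match describes letters in the window and is not a binding site.

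PLAU (ENSG00000122861, chromosome 10 from 73909177 to 73917496 in hg38, plus strand) was close to absent in control cells. Its counts were 0, 11 and 0 in shNTC replicates 1, 2 and 3 and 88, 39 and 58 in shEHD1 replicates 1, 2 and 3. On the CPM scale these were 0.00, 0.397 and 0.00 against 3.09, 1.59 and 1.87. Every shEHD1 library was above the single control library with reads, the lowest by 4.01-fold. The fitted log2 fold change was 3.91 (SE 0.90), a rise of 15.1-fold, and 7 of the genes tested had a larger one. That size rests on shNTC replicate 2: without it the fitted value was 8.86, which depends on how a 0 is handled, and against a floor of 3 counts in each of the other control libraries the shEHD1 mean was at least 17.6-fold higher. Even after the rise, PLAU remained a low transcript, at 2.18 ± 0.795 CPM (SD, n = 3). Its exons share 915 bases (31% of its merged exon length) with C10orf55, a long non-coding RNA on the opposite strand that had at most 5 counts in any library, and the library kit does not keep strand.

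The receptor and the second activator stood at steadier levels. PLAUR (ENSG00000011422, chromosome 19 from 43646095 to 43670547, minus strand) had 139, 150 and 143 counts in shNTC and 157, 134 and 146 in shEHD1. On the CPM scale the groups overlapped, at 5.69 ± 0.611 and 5.23 ± 0.449 (SD, n = 3 each), with a log2 fold change of -0.12 (SE 0.16). The receptor transcript thus outnumbered that of its ligand in all 6 libraries, but the ratio of PLAU to PLAUR per kilobase of exon was 0.00, 0.111 and 0.00 in the control libraries and 0.847, 0.440 and 0.600 in the shEHD1 libraries. PLAT (ENSG00000104368, chromosome 8 from 42174718 to 42207709, minus strand) had 57, 83 and 60 counts in shNTC and 86, 87 and 87 in shEHD1. Its level was 2.61 ± 0.420 and 3.13 ± 0.384 CPM, with overlapping groups and a log2 fold change of 0.26 (SE 0.21).

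SERPINE2 (ENSG00000135919, chromosome 2 from 223975045 to 224039318, minus strand), the serpin of the group, was abundant in both. It stood at 141, 135 and 205 CPM in shNTC and at 176, 181 and 173 CPM in shEHD1. The spread was wide in the control group (24.4% of the mean) and narrow in shEHD1 (2.26%), and shNTC replicate 3 lay above all 3 shEHD1 libraries. The log2 fold change was 0.14 (SE 0.15), and 0.36 without shNTC replicate 3.

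The metalloproteinases differed from each other. MMP14 (ENSG00000157227, chromosome 14 from 22836560 to 22849041, plus strand) stood at 34.7, 34.6 and 34.5 CPM in shNTC and at 50.9, 54.7 and 50.6 CPM in shEHD1. The control libraries differed by less than 1 CPM and all 3 shEHD1 libraries lay above them, with a log2 fold change of 0.59 (SE 0.07), or 1.5-fold. MMP2 (ENSG00000087245, chromosome 16 from 55389700 to 55506691, plus strand), whose zymogen MMP14 activates, stood at 11.8, 11.4 and 12.3 CPM in shNTC and at 9.54, 11.4 and 10.9 CPM in shEHD1. The groups overlapped, and its log2 fold change was -0.16 (SE 0.12).

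The 3 inhibitors did not move together. TIMP1 (ENSG00000102265, chromosome X from 47582408 to 47586789, plus strand, within SYN1 on the opposite strand and with no shared exon bases) was the most abundant of the 9 genes. It stood at 639, 646 and 553 CPM in shNTC and at 852, 765 and 898 CPM in shEHD1. All 3 shEHD1 libraries were higher, with a log2 fold change of 0.45 (SE 0.09), or 1.37-fold. SYN1 itself had a log2 fold change of 0.00.
TIMP2 (ENSG00000035862, chromosome 17 from 78852977 to 78925387, minus strand) stood at 19.7, 22.7 and 16.4 CPM in shNTC and at 10.5, 10.2 and 10.9 CPM in shEHD1. All 3 shEHD1 libraries were lower and close to each other, with a log2 fold change of -0.90 (SE 0.13), which left 53.7% of the transcript. Its exons share 224 bases with CEP295NL, which had at most 3 counts in a library.
TIMP3 (ENSG00000100234, chromosome 22 from 32801705 to 32863041, plus strand, within SYN3 on the opposite strand and with no shared exon bases) had 492, 451 and 394 counts in shNTC and 116, 127 and 100 in shEHD1. On the CPM scale it went from 18.7, 16.3 and 17.6 to 4.07, 5.19 and 3.23, so that the lowest control library was above 3 times the highest shEHD1 library. Its log2 fold change was -2.08 (SE 0.18), which left 23.7% of the transcript, and 65 of the genes tested had a lower value. SYN3 had 0.55 on the same scale and did not pass (edgeR adjusted p = 0.119).

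**Figure D2:**
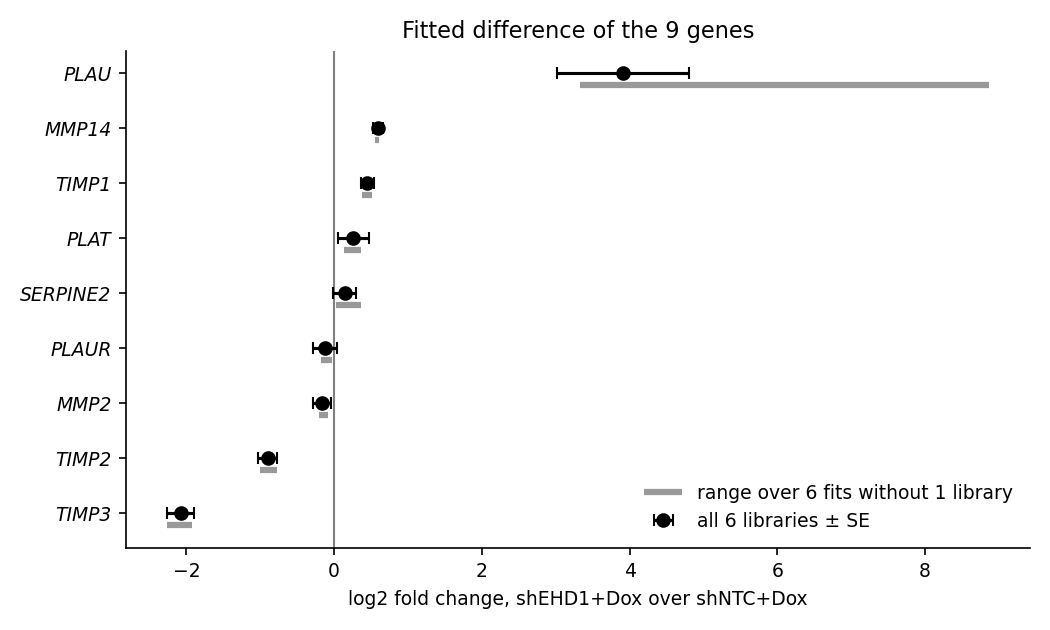
Fitted log2 fold change (shEHD1 over shNTC) of the 9 genes with its standard error, and in grey the range when each of the 6 libraries was omitted in turn. The range is 3.33 to 8.86 for PLAU and -2.26 to -1.92 for TIMP3, and no range crosses 0.

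Levels were set side by side as CPM per kilobase of merged exons (GENCODE 44). In shNTC the order of the means ran from TIMP1 (424) through SERPINE2 (17.9), MMP14 (7.49), TIMP3 (3.81), TIMP2 (3.16), MMP2 (2.52), PLAUR (1.28) and PLAT (0.336) to PLAU (0.0449). Neighbors in this order did not overlap over the 3 libraries, except TIMP3 and TIMP2. In shEHD1 the top of the order was the same, TIMP1 (580), SERPINE2 (19.7) and MMP14 (11.3), followed by MMP2 (2.26), TIMP2 (1.70), PLAUR (1.17), TIMP3 (0.905), PLAU (0.740) and PLAT (0.402). There TIMP3 overlapped with both PLAUR above it and PLAU below it. On this scale TIMP3 went from the fourth place to the seventh, and PLAU from the last to the one above PLAT. The order depends on the length used, the merged exons of all annotated transcripts, which need not be those expressed. In CPM without length, PLAT (3.13) was above PLAU (2.18) in shEHD1, and TIMP2 (19.6) was above TIMP3 (17.5) in shNTC. TIMP1 made up 98.4% of the summed level of the 3 inhibitors in shNTC (SD 0.0394, n = 3) and 99.5% in shEHD1 (SD 0.0654, n = 3), so the summed level followed TIMP1, at 431 ± 36.1 and 582 ± 46.4 CPM per kilobase.

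**Figure D3:**
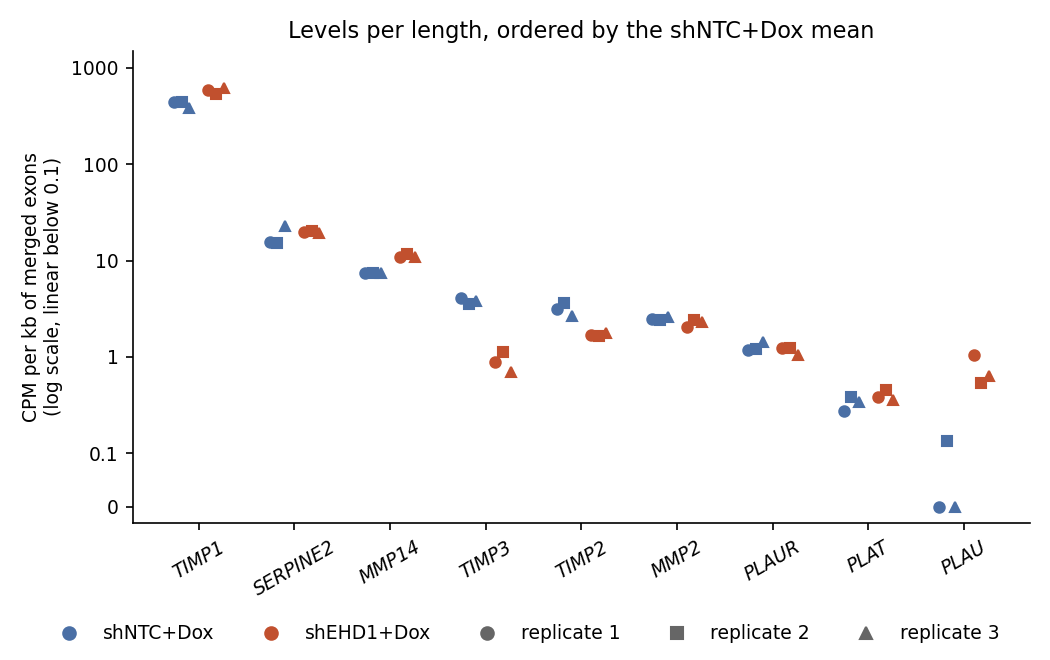
CPM per kilobase of merged exons of the 9 genes in every library, ordered by the shNTC mean, on a log axis that is linear below 0.1. TIMP1 lies far above the others in every library, and the 2 control libraries without PLAU reads lie at 0.

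Within a library, the balance of TIMP2 to MMP14, the pair that forms the activation complex for MMP2, was 0.424, 0.488 and 0.353 per kilobase in shNTC and 0.153, 0.139 and 0.161 in shEHD1. The groups were far apart, with TIMP2 lower and MMP14 higher. MMP2 per MMP14 was 0.333, 0.324 and 0.351 in shNTC and 0.184, 0.205 and 0.211 in shEHD1, while MMP2 itself overlapped between the groups. TIMP3 per TIMP2 went from 1.23 ± 0.246 to 0.536 ± 0.142 (SD, n = 3 each), so TIMP3 was reduced further than TIMP2. These ratios use the same counts as the fold changes above and are not independent of them.

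**Figure D4:**
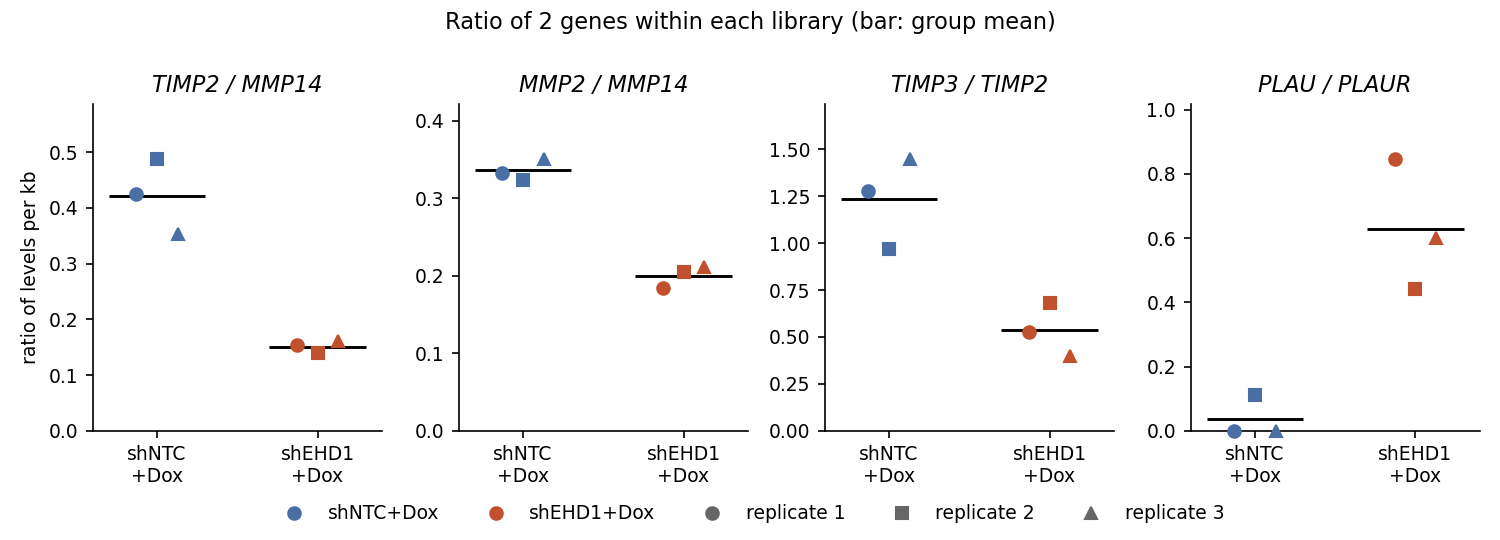
Ratios of the levels per kilobase of 2 genes within each library, with a bar for the group mean. TIMP2 per MMP14 and MMP2 per MMP14 are lower in all 3 shEHD1 libraries, and PLAU per PLAUR is 0.440 or higher there and at most 0.111 in shNTC.

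To place these genes in their pathway, 106 other genes were listed by role, none of them among the 9: genes of the plasminogen and matrix protease systems and 12 transcription factors of the AP-1 and ETS families. Only 63 passed the filter, since 25 had no count in any library and the others left out had at most 17. At an edgeR adjusted p under 0.05, 14 of the 63 (22.2%) were higher and 6 (9.52%) lower in shEHD1, where the shares over all genes tested are the 8.59% and 8.75% given above, and 43 did not pass. The lists were chosen with earlier results of these data known, so these shares are descriptions and no independent support for a rise of the pathway. With a 2-fold change as well, 4 were higher and 1 lower, beside 1.08% and 1.74% of all genes tested. Groups did not overlap for 32 of the 63 (50.8%), beside 39.3% of all genes tested. The median log2 fold change of the 63 was 0.13, beside 0.00 over all genes tested. Without the transcription factors, 13 of 53 were higher (24.5%) and 4 lower (7.55%). Over all 63, the count of higher genes was 7 when shEHD1 replicate 1 was omitted, 8 without replicate 2 and 7 without replicate 3. That of lower genes was 3 without any of the libraries but shNTC replicate 3. Many of these calls thus depended on which libraries were used, and leaving out a library also lowers the power of the fit.

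In the plasminogen arm, the substrate itself was not made in amounts that could be measured: PLG had at most 2 counts in a library. Of 5 cell surface and contact genes tested, 1 was higher and 1 lower, beside 8.59% and 8.75% of all genes tested. S100A10, the partner of annexin A2 in a plasminogen receptor, rose from 17.5 ± 1.15 to 27.7 ± 2.02 CPM (log2 fold change 0.67, SE 0.10, edgeR adjusted p = 0.00291). ANXA2 was at 368 ± 3.79 and 400 ± 6.08 CPM and did not pass (edgeR adjusted p = 0.196). PLGRKT and F12 did not pass either (edgeR adjusted p = 0.797 and 0.564). ENO1, a glycolytic enzyme that also binds plasminogen, fell from 3100 ± 157 to 2570 ± 65.2 CPM (log2 fold change -0.27, SE 0.08, edgeR adjusted p = 0.0386). Among the inhibitors and clearance receptors, 3 of 6 tested rose and none fell, beside 8.59% of all genes tested upward and 8.75% downward. CPB2, which encodes a carboxypeptidase that slows plasmin formation on fibrin, had a log2 fold change of -0.80 and did not pass (edgeR adjusted p = 0.159). SERPINI1, the neuroserpin that inhibits PLAT, rose by 0.81 on the log2 scale (SE 0.22, edgeR adjusted p = 0.0349). VLDLR, an endocytic receptor for activator and inhibitor complexes, rose by 0.73 (SE 0.18, edgeR adjusted p = 0.0256), and 1360 of its exon bases are shared with other genes. LRPAP1, the chaperone of this receptor family, also rose, by 0.32 on the log2 scale (edgeR adjusted p = 0.0117), while the main clearance receptor LRP1 did not pass (0.25, edgeR adjusted p = 0.435). Of these calls, S100A10 alone passed in all 6 fits that left out a library. ENO1 passed only without shNTC replicate 3. SERPINI1 was lost without 4 libraries (all but shNTC replicates 2 and 3), VLDLR without 3 (shNTC replicate 2 and shEHD1 replicates 1 and 2) and LRPAP1 without shEHD1 replicate 3, with adjusted p-values up to 0.132, 0.0914 and 0.0598.

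Of the 21 other MMP genes, 5 were tested, and 1 of these (20.0%) was higher, beside 8.59% of all genes tested. MMP9, the second gelatinase, rose from 1.29 ± 0.652 to 3.66 ± 0.796 CPM (log2 fold change 1.48, SE 0.38, edgeR adjusted p = 0.0286), with 49, 40 and 13 counts in shNTC and 84, 86 and 140 in shEHD1. It shares 430 exon bases with other genes. The call was lost without shNTC replicate 2 and without any of the shEHD1 libraries, with an adjusted p of up to 0.107. MMP11, MMP15, MMP17 and MMP24 did not pass, and MMP1, MMP3 and MMP7 had no count in any library. MMP16, a membrane-anchored MMP like MMP14, was below the filter, with 17, 15 and 4 counts in shNTC and 0 in each shEHD1 library, and was not tested. It was named after its values were seen. Of 21 ADAM and ADAMTS genes tested, 18 did not pass, so that 14.3% were called, beside 17.3% of all genes tested. ADAMTS4, an aggrecanase, rose by 0.75 (SE 0.14, edgeR adjusted p = 0.00881), ADAMTS15 fell by 0.42 (SE 0.07, edgeR adjusted p = 0.00521), and both passed without any single library. ADAMTS8 fell by 0.62 (SE 0.17, edgeR adjusted p = 0.0345) and passed only in the fit without shNTC replicate 3. The sheddases ADAM10 and ADAM17, which TIMP3 can inhibit, had log2 fold changes of 0.22 and 0.13 and did not pass (edgeR adjusted p = 0.0502 and 0.206).

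Of the other metalloproteinase inhibitors and inducers, 3 of 4 were tested, and TIMP4 and RECK rose, beside 8.59% of all genes tested upward. TIMP4 had 49, 22 and 28 counts in shNTC and 78, 87 and 126 in shEHD1 (log2 fold change 1.41, SE 0.32, edgeR adjusted p = 0.0193), and shares 170 exon bases with other genes. Its level of 3.45 ± 0.671 CPM in shEHD1 was small beside that of TIMP1. RECK, a membrane-anchored inhibitor of MMPs, was at 2.46 ± 0.335 and 3.92 ± 0.448 CPM (log2 fold change 0.67, SE 0.20), at an edgeR adjusted p of 0.0495 that was lost without any single library (0.0642 to 0.180). TIMP4 was lost without shEHD1 replicate 2 (0.0594) and without shEHD1 replicate 3 (0.0815). BSG, an inducer of MMPs, was at 620 ± 26.0 and 657 ± 35.6 CPM and did not pass (edgeR adjusted p = 0.453).

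A further group held other proteases that work in lysosomes or around the cell, and HPSE, a heparanase and not a protease. Of its 10 genes tested, 4 rose and 1 fell, beside 8.59% and 8.75% of all genes tested. CTSS, a cysteine cathepsin that stays active at neutral pH, had 10, 20 and 11 counts in shNTC and 57, 34 and 46 in shEHD1 (log2 fold change 1.60, SE 0.34, edgeR adjusted p = 0.0146). HPSE, the heparanase, rose by 0.87 (SE 0.21, edgeR adjusted p = 0.0251) and CTSL by 0.60 (SE 0.10, edgeR adjusted p = 0.00454). The fourth, CTSB, rose by 0.37 (edgeR adjusted p = 0.0128). PCSK6, a proprotein convertase, fell by 0.37 (SE 0.11, edgeR adjusted p = 0.0452), and 3135 of its exon bases are shared with other genes. In a separate list of other protease inhibitors, 1 of 3 genes tested rose, beside 8.59% of all genes tested upward. This was CST3, which encodes cystatin C, the secreted inhibitor of cathepsins. It rose from 16.3 ± 0.746 to 29.4 ± 3.35 CPM (log2 fold change 0.85, SE 0.11, edgeR adjusted p = 0.00146). SPINT1 and CSTB did not pass (edgeR adjusted p = 0.168 and 0.0967). CTSL and CST3 passed without any single library. CTSS was lost without shNTC replicate 1 and shEHD1 replicate 1 (0.0503 and 0.0635), CTSB without shEHD1 replicates 1 and 3, HPSE without shNTC replicate 2 and without any of the shEHD1 libraries, and PCSK6 without any library but shNTC replicate 3, with adjusted p-values up to 0.0646, 0.0904 and 0.162.

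**Figure D5:**
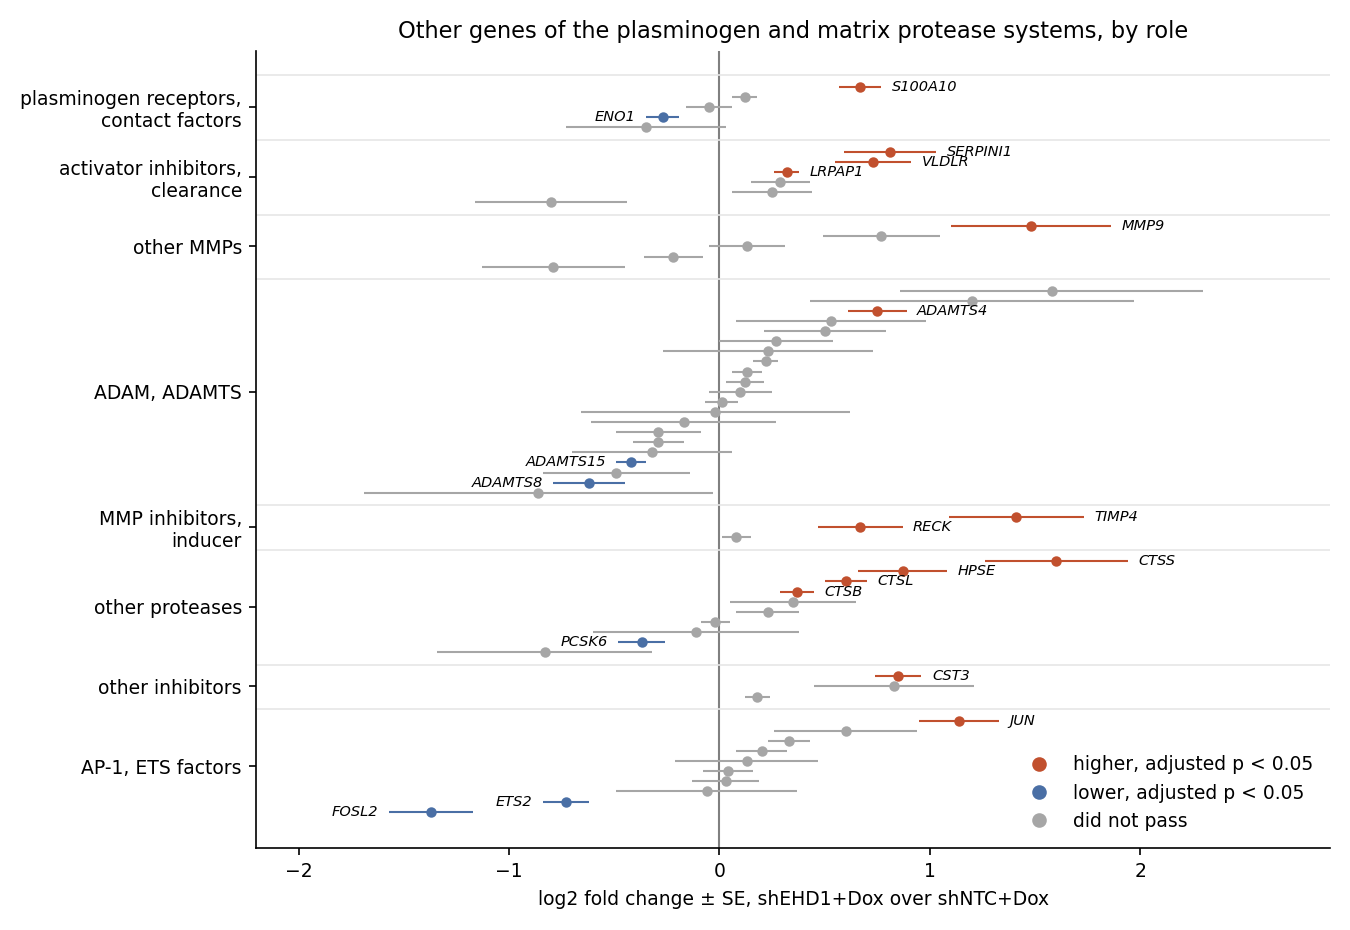
Log2 fold change with its standard error of the 63 other genes tested, grouped by role, with genes that passed an adjusted p under 0.05 named. The largest rise is that of CTSS (1.60) and the largest fall among the genes that passed is that of FOSL2 (-1.37).

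AP-1 and ETS factors, known regulators of PLAU and several MMP genes, moved in both directions. JUN, an AP-1 subunit, rose from 9.60 ± 2.61 to 21.3 ± 2.46 CPM (log2 fold change 1.14, SE 0.19, edgeR adjusted p = 0.00486). FOSL2, its partner of the FOS family, fell from 9.34 ± 2.06 to 3.62 ± 0.539 CPM (log2 fold change -1.37, SE 0.20, edgeR adjusted p = 0.00292). ETS2 fell from 43.2 ± 5.77 to 26.0 ± 1.30 CPM (log2 fold change -0.73, SE 0.11, edgeR adjusted p = 0.00285). Of the 10 factors tested, 1 rose (10.0%) and 2 fell (20.0%), beside 8.59% and 8.75% of all genes tested. All 3 calls held without any single library, and the other 7 factors tested, among them FOS, FOSL1 and JUND, did not pass.

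The genes whose level followed that of PLAU most closely over the 6 libraries, by Pearson's r of log2 CPM among 13160 genes with a mean of at least 1 CPM, were MAPK10 (0.996), OARD1 (0.994), DCTN4 (0.994), TPD52L1 (0.994) and SERTAD2 (0.992). MAPK10, the kinase JNK3, had 50, 86 and 47 counts in shNTC and 147, 105 and 143 in shEHD1, so it shared the higher value of shNTC replicate 2. These points share the division into groups, and with 6 libraries many genes reach such values. With a smaller prior count, 2 of the 5 stayed among the top 5.

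A 7-base word, AAGCTCT, was read in the 3′ UTRs because it had been picked from these same data as one whose carriers tended to be lower in shEHD1. Over 12971 genes tested whose 3′ UTR spans 50 bases or more, the 1820 carriers had a median log2 fold change of -0.07 and the others 0.02. TIMP2 and MMP2 held the word once each. TIMP3 and the other 6 genes did not hold it. The part of this word in the values of TIMP2 and MMP2 was not tested.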

How the data were processed

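RNA-seq was read for 6 TC71 libraries, 3 per group. Per the study's methods, the authors aligned paired-end reads (2 × 75 bases, an unstranded TruSeq kit) to hg38 with hisat2 and quantified Ensembl transcripts with StringTie, while the submitters' processing notes name STAR 2.7.3a. The deposited values are whole-number counts per gene without normalization, and how they were derived is not given in the sources used here. 

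TMM scaling and the quasi-likelihood test (robust glmQLFit, glmQLFTest) came from edgeR 4.0.16 under R 4.3.3. Tested were 16785 genes with 10 counts or more in no fewer than 3 libraries, and p-values were adjusted by the Benjamini-Hochberg method. Libraries held 22711235 to 30582187 counts. The exact permutation test could not go below 0.1 and was not used. Log2 CPM used a prior count of 2. Exon lengths came from GENCODE 44 (GRCh38), which held 60357 of 60676 gene identifiers. The genes, gene lists and UTR word were chosen with earlier results of these data known. Genes named were the 9, EHD1, up to 3 largest rises and 3 largest falls per list among those passing, the 5 most like PLAU by Pearson's r, and PLG, MMP9, TIMP4 and RECK. 1 further gene of the rule is not reported here, and counts over the lists leave it out. Other names, such as CTSB, were added after their values were seen. Alternatives were DESeq2 size factors, no filter, a fit blocked on the replicate number, omission of each library, a 2-fold threshold and DESeq2 1.42.0 (Wald test). Standard errors came from the log2 fold change and F statistic of the edgeR fit, and SDs are over the libraries of a group. The floor of 3 counts covers counting error only.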

Additional observations from a re-analysis of the deposited data

How the results depend on the processing

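The 9 genes kept the direction of their fold change in every alternative run. Their count at an adjusted p under 0.05, 5 with all libraries, ran from 3 to 6 over the fits that left out a library and was 4 with DESeq2's Wald test and with the block, where PLAU did not meet it. Among the 106 other genes, the count higher, 14 with all libraries, was 13 with DESeq2 size factors, 13 without a filter, 16 with DESeq2's Wald test and 10 with the replicate number as a block. It ran from 7 to 13 over the fits that left out a library, and was 4 with a 2-fold threshold. The count lower, 6 with all libraries, was 4 without a filter, 3 with the replicate block, 3 to 7 over the fits that left out a library, and 1 with a 2-fold threshold. Same-numbered libraries did not deviate together (correlations of 0.072, -0.0593 and -0.0448 across genes), so the numbers gave no pairing and the lost calls under the block were not read as weaker effects. The cause of the changes was not tested. PLAU, PLAT and several genes named above rest on fewer than 100 counts per library, which limits the precision of their fold changes.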
